A study of Rattus norvegicus with 17 samples.

Results

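Orphan and adhesion G protein-coupled receptors are the receptors of this class that were named before a ligand was known, together with the family whose long extracellular part binds matrix or neighbouring cells. Genes were taken by their symbol, which had to begin with Gpr or Gprc and a number, with Mrgpr or Adgr, or to be Lgr4 to Lgr6, Lphn1 to Lphn3, Cd97 or Eltd1. The symbol rule uses no expression value, but it was chosen with earlier results of these data known. The rule found 69 of the 13517 genes with a single symbol in the deposited data, each with 1 probe set. Of the 69, 67 had a value on every array. The authors had left out dim probe sets before, so further receptors of the array may be missing here. RNA was measured in 17 middle cerebral arteries (MCAs) of female Wistar rats of 12 weeks and about 250 g, with 1 whole-transcript array per artery, and rats in proestrus were left out. The 6 control MCAs came from 6 healthy rats that had not been operated on. In 6 other rats an intraluminal filament, placed and withdrawn under isoflurane anesthesia, blocked the right MCA for 2 h (transient middle cerebral artery occlusion, tMCAO), and arteries were taken 3 h after reperfusion. These rats gave 5 occluded MCAs and 6 non-occluded MCAs from the left side, and in 5 rats (F8, F10, F12, F15 and F33) both arteries were measured. No group was sham-operated, so that the occlusion, the surgery and the anesthesia cannot be told apart in a comparison with control, and neither can the side in a comparison of both arteries.

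These receptors span the membrane in a bundle of helices and signal through heterotrimeric G proteins, and receptor kinases and arrestins then switch them off. Adhesion receptors cut themselves at a site close to the membrane, and the freed stalk can activate the remaining receptor. Other members sense protons, lysophospholipids, fatty acids or lactate, the Lgr members bind R-spondins and strengthen Wnt signaling, and several proteins with a Gpr symbol act in lysosomes or the Golgi and are not classical receptors. In the artery wall Gpr4, Gpr116, Gpr182 and Eltd1 are known mainly from endothelium.

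Values are on the log2 scale, where a difference of 1 is a 2-fold change, and a brighter probe set of another gene need not mean more RNA. Mean values of the 67 receptors ran from 5.36 to 9.66 with a median of 6.46, against a median of 7.40 over the 13809 probe sets measured on every array. Of the 67, 25 (37.3%) had a mean below 6, against 16.7% of all probe sets. At this brightness background takes a larger part of the signal, and since an array has no count behind it, precision is set by how many arrays there were. Markers of smooth muscle averaged 12.4 to 12.7 per artery over 4 measured genes, and endothelial markers averaged 9.75 to 10.5 over 6 genes. Control artery F26 lay apart from the other control arteries for Mrgprh, Gpr56 and Gprc5a, and non-occluded artery F19 lay apart from its group for Gpr4, Gpr18, Gpr21 and Mrgprh. Differences of these receptors that rest on such an artery are given with and without it. Each value is an average over all cells of an artery, so fewer cells of a type and less RNA per cell cannot be told apart.

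Against the control MCAs, 6 of the 67 receptors rose in the occluded MCAs and 17 fell, at an adjusted p under 0.05 in limma. Over all probe sets 19.0% rose and 22.3% fell, and of the receptors 8.96% rose and 25.4% fell. Each count from a smaller list in this comparison stands beside these same shares of all probe sets. The median change was -0.08 over the receptors and -0.02 over all probe sets, and the median size of a change without its sign was 0.19 in both. Only Gpr56, Gpr4, Mrgprh and Gpr20 changed by 2-fold or more. Receptors with a mean of 8 or above were past the threshold in 57.1% of 14 cases, those from 6 to 8 in 32.1% of 28 and those below 6 in 24.0% of 25. All probe sets of the same brightness were past it in 50.7%, 43.4% and 14.8%. Without control artery F26 the counts were 4 higher and 17 lower, since Eltd1 and Gpr84 missed the threshold. Significance analysis of microarrays (SAM), the method of the study, was rerun here with settings that may differ from the study's. This rerun called 9 of the 23. Gpr56, Gpr4, Gprc5a and Gpr63 were those that rose, and Mrgprh, Gpr20, Mrgprf, Lphn2 and Gpr137b those that fell. It called fewer over all 13809 probe sets too, with 1206 higher and 1078 lower, where limma called 2620 and 3075.

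**Figure D1:**
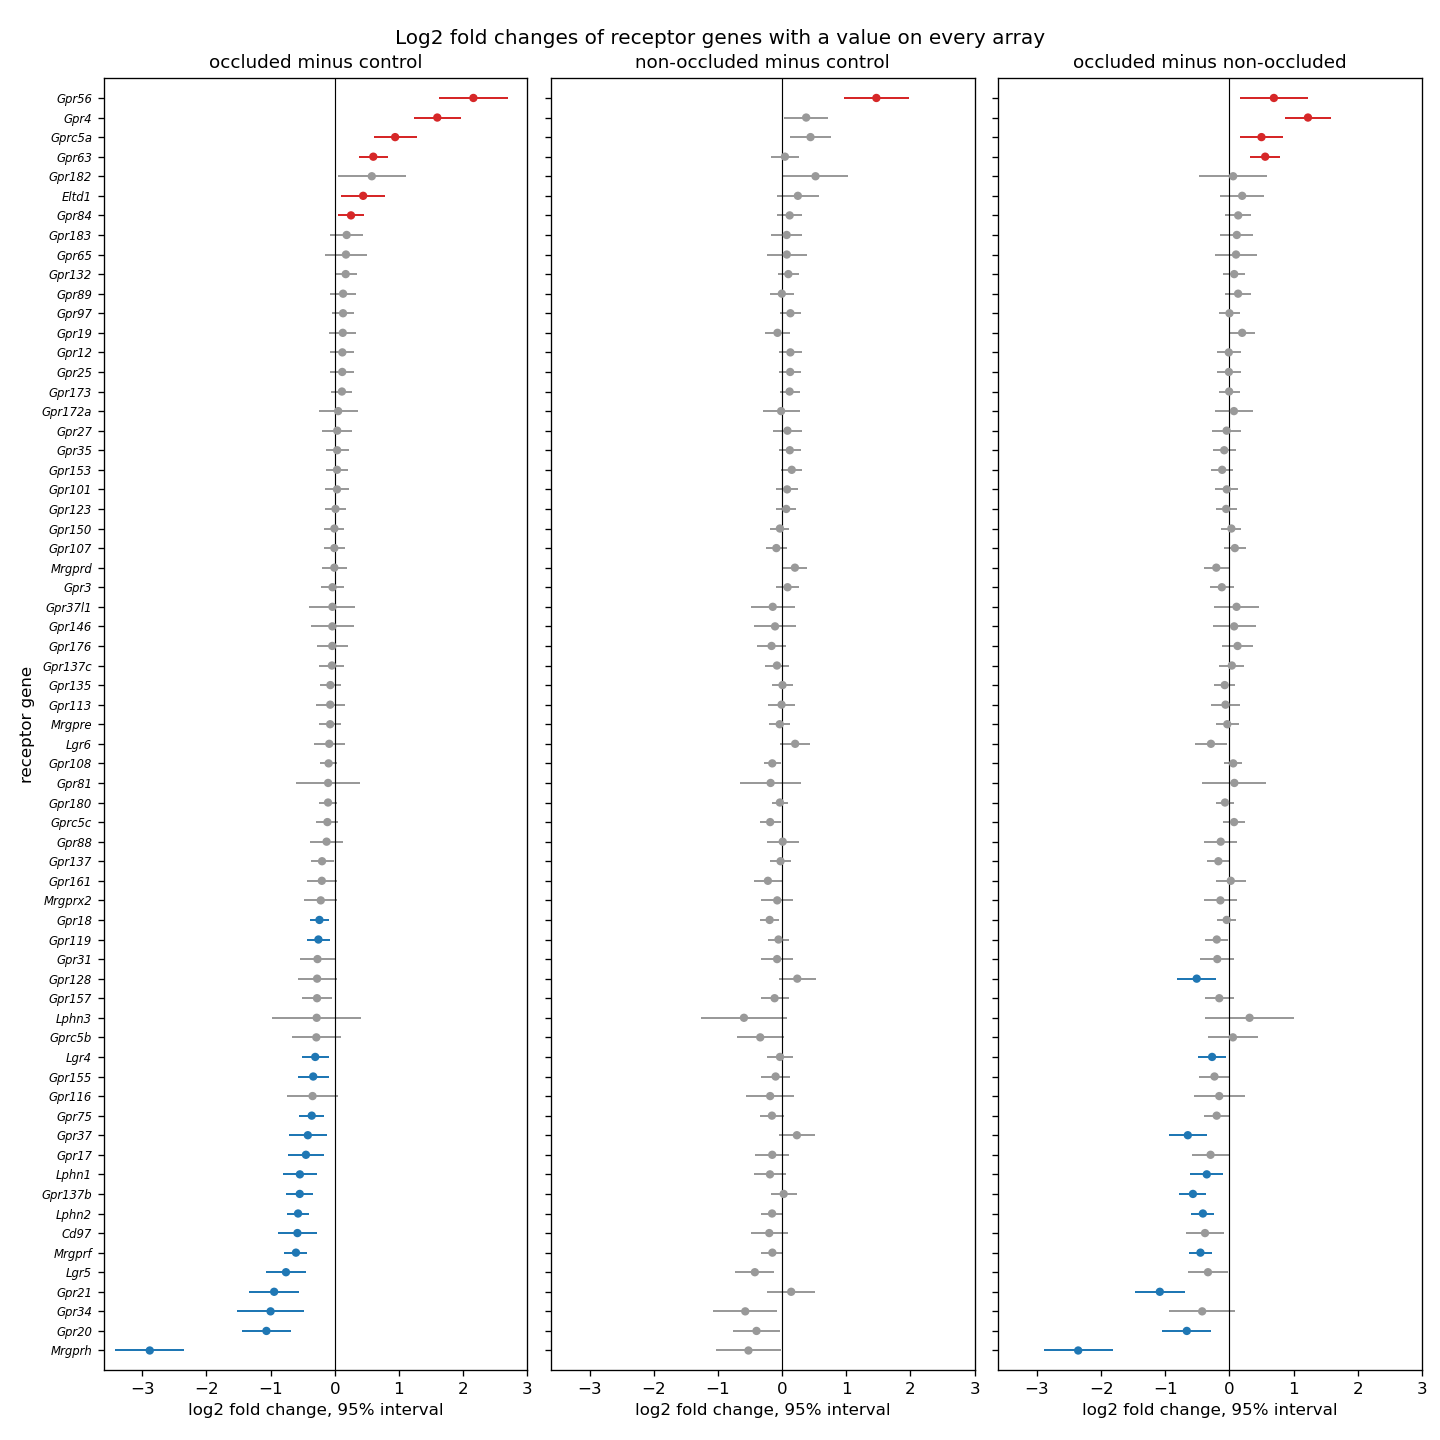
Log2 fold changes (points) with 95% intervals (lines) of 65 receptor genes with a value on every array, for the 3 comparisons, in the order of the change between occluded and control MCAs. Red and blue mark receptors higher and lower at an adjusted p under 0.05 and grey those past no threshold; 6 were higher and 17 lower in the left panel, 1 higher in the middle panel, 4 higher and 10 lower in the right panel.

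Of the 12 measured adhesion receptors, Gpr56 and Eltd1 rose in the occluded MCAs, Cd97, Lphn1 and Lphn2 fell, and 7 did not pass the test. Gpr56 (now named Adgrg1; chromosome 19, 10438332 to 10475607 in the array annotation, for which the sources used here name no genome build) binds collagen III and transglutaminase 2 and is known from several cell types, among them those of the developing cortex and cytotoxic lymphocytes. Its log2 values were 6.02, 6.57 and 6.76 at the lowest, the median and the highest control MCA. The occluded MCAs gave 9.05 in F8, 8.93 in F10, 8.91 in F12, 8.43 in F15 and 8.10 in F33. Every occluded artery was above every control artery. The mean was 6.52 ± 0.26 (SD, n = 6) in control and 8.68 ± 0.40 (SD, n = 5) in occluded MCAs, a 4.47-fold rise (log2 change 2.16, SE 0.25, adjusted p = 2.48e-06). Without control artery F26 the log2 change was 2.06 (adjusted p = 8.44e-06).

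Gpr97, an adhesion receptor of leukocytes, lies 2.9 kb from Gpr56 on chromosome 19 in the array annotation. It did not pass the test, with a difference of 0.13 (SE 0.08, adjusted p = 0.22) between occluded and control MCAs. Of the known Gpr56 ligands on the arrays, transglutaminase 2 (Tgm2) rose by 0.55 (SE 0.11, adjusted p = 0.000824), while Col3a1, the collagen III chain, differed by -0.17 (SE 0.10, adjusted p = 0.198).

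Eltd1 (Adgrl4), an endothelial adhesion receptor known from vessel sprouting, had values of 7.67, 8.04 and 8.56 (lowest, median, highest) in control MCAs. Occluded MCAs gave 8.67 in F8, 8.34 in F10, 8.86 in F12, 8.50 in F15 and 8.31 in F33, with F8 and F12 above the control range and the other 3 inside its upper part. The rise was 1.36-fold (log2 change 0.44, SE 0.16, adjusted p = 0.0344). It was no longer past the threshold without any of 4 control arteries (F4, F21, F26 or F36) or of the occluded arteries F8, F12 and F15, where the adjusted p went up to 0.0941. Gpr116 (Adgrf5), an adhesion receptor of endothelium and lung, differed by -0.35 (SE 0.19, adjusted p = 0.156).

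Cd97 (Adgre5) is an adhesion receptor of leukocytes that binds Cd55. It was at 9.08, 9.56 and 9.74 (lowest, median, highest) in control MCAs and at 8.60 to 9.34 in occluded MCAs, where F33 alone reached the control range. The log2 change was -0.58 (SE 0.14, adjusted p = 0.0032). Its ligand Cd55, which holds back complement, moved the other way, with a rise of 1.36 (SE 0.25, adjusted p = 0.000245). In the RefSeq annotation (GRCr8) Ddx39a overlaps Cd97, and the Ddx39a probe set rose by 0.73 (adjusted p = 2.85e-06).

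The latrophilins Lphn1 and Lphn2 (Adgrl1 and Adgrl2) bind teneurins and Flrt proteins on neighbouring cells. Lphn2 ran from 9.06 to 9.37 in control MCAs and from 8.49 to 8.75 in occluded MCAs, with no overlap, and fell by 0.57 (SE 0.08, adjusted p = 3.03e-05). Lphn1 ran from 7.51 to 8.20 in control and from 7.03 to 7.57 in occluded MCAs, with overlap only through control F4 and occluded F8, and fell by 0.54 (SE 0.12, adjusted p = 0.00168). Lphn3 had the widest spread of the 3 in control MCAs, from 6.88 to 9.05, and its change of -0.28 (SE 0.33, adjusted p = 0.54) was smaller than that spread. Of the 10 measured ligands of adhesion receptors, Cd55, Tgm2 and the teneurin Odz2 rose, and the teneurins Odz3 and Odz4 and Reck fell. The change was 0.32 for Odz2 (SE 0.10, adjusted p = 0.0153) and -0.72 for Odz3 (SE 0.16, adjusted p = 0.00139). Among the 4 measured adhesion receptors outside the symbol rule, Celsr2, a cadherin of planar cell polarity, fell by 0.62 (SE 0.13, adjusted p = 0.000741) and 3 did not pass the test.

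Among the proton-sensing receptors Gpr4 rose in the occluded MCAs. Gpr4 (chromosome 1, 78586541 to 78588029) is the proton sensor of endothelium and raises cyclic AMP when the pH falls. Control MCAs were at 6.61, 7.07 and 7.51 (lowest, median, highest). Occluded MCAs were at 8.46 in F8, 8.69 in F10, 8.48 in F12, 8.98 in F15 and 8.70 in F33, all above the control range. The rise was 3.03-fold (log2 change 1.60, SE 0.17, adjusted p = 9.42e-07). Gpr65, found mainly on leukocytes, differed by 0.18 (SE 0.16, adjusted p = 0.405), and Gpr132, of macrophages and lymphocytes, by 0.17 (SE 0.08, adjusted p = 0.105). Gpr65 was at 5.49 to 6.08 in control and 5.38 to 6.32 in occluded MCAs, and Gpr132 at 5.30 to 5.70 and 5.64 to 5.89, with overlap in both.

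Gpr4, Gpr56 and Eltd1 were the 3 risers among 6 measured members listed as endothelial or mural, and Gpr116, Gpr146 and Gpr182 did not pass the test. Gpr56 is on this list although it is known from other cells too, and Eltd1 lost its call in 7 of the 11 fits with 1 artery left out. Over all probe sets 19.0% rose, and 6 members are too few to set against that share. Gpr182, an atypical chemokine receptor of endothelium, had values of 7.61 to 9.00 in control and 8.50 to 9.24 in occluded MCAs (log2 difference 0.58, SE 0.25, adjusted p = 0.0775), and without control F22 it was past the threshold (0.71, adjusted p = 0.0293). Of the 6 measured endothelial markers, Flt1 rose and Cldn5 and Tek fell, and their mean level ran from 10.04 to 10.38 in control, 10.12 to 10.51 in non-occluded and 9.75 to 10.52 in occluded MCAs. Of the 5 pericyte markers, the potassium channel subunit genes Kcnj8 and Abcc9 rose by 1.73 (adjusted p = 4.48e-07) and 1.07 (adjusted p = 1.65e-05), Pdgfrb fell by 1.08 (adjusted p = 7.21e-07) and Rgs5 and Cspg4 did not pass the test. Their mean level ran from 8.96 to 9.32 in control, 9.07 to 9.38 in non-occluded and 9.06 to 9.65 in occluded MCAs. Of the 4 measured smooth muscle markers, Des rose by 0.46 (adjusted p = 0.00011) and Tagln did not pass the test. Smtn fell by 0.68 (adjusted p = 0.000328) and Myh11 by 0.16 (adjusted p = 0.0457). Acta2 and Cnn1 had no probe set with a single symbol and a value on every array, which says nothing of their RNA. The part of endothelial and mural cells in the receptor changes was not tested.

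**Figure D2:**
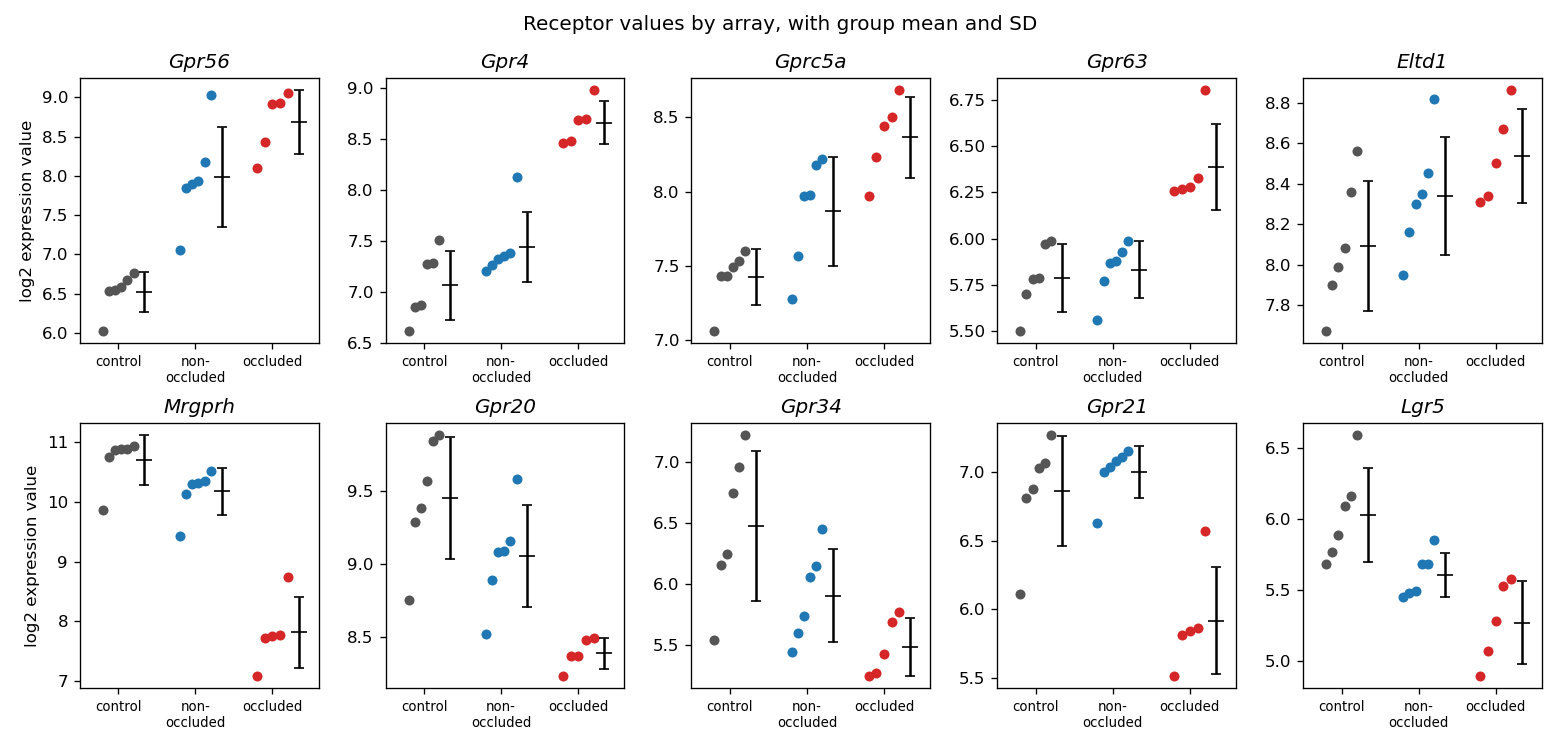
Log2 expression values of each array (points) for the 5 receptors with the largest rises (top row) and the 5 with the largest falls (bottom row) between occluded and control MCAs, with group mean and SD (black bars) for 6 control, 6 non-occluded and 5 occluded MCAs. Vertical axes differ between panels. Every occluded artery lies above the control arteries for Gpr56, Gpr4, Gprc5a and Gpr63 and below them for Mrgprh, Gpr20 and Lgr5.

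Among 10 measured receptors with a lipid, nucleotide or metabolite ligand, Gpr63 and Gpr84 rose and Gpr34, Gpr17, Gpr18 and Gpr119 fell. Gpr63, an orphan of the brain for which lysophospholipid ligands have been reported, was at 5.50, 5.79 and 5.99 (lowest, median, highest) in control MCAs. Occluded MCAs gave 6.27 in F8, 6.26 in F10, 6.28 in F12, 6.80 in F15 and 6.33 in F33, so 4 of the 5 lay between 6.26 and 6.33 and all lay above the control arteries. The rise was 1.52-fold (log2 change 0.60, SE 0.11, adjusted p = 0.000235). Gpr84, the receptor for medium-chain fatty acids on myeloid cells, rose by 0.25 (SE 0.10, adjusted p = 0.0455) with overlapping groups (5.32 to 5.72 and 5.51 to 5.98). Its call was lost when any of 8 arteries was left out (control F4, F21, F22, F26 and occluded F8, F10, F15, F33), with an adjusted p up to 0.118, and in a fit of the arrays of this comparison alone.

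Gpr34, the lysophosphatidylserine receptor of microglia and macrophages, fell most within this group. Control MCAs were widely spread, with 5.54, 6.50 and 7.22 (lowest, median, highest). Occluded MCAs were at 5.77 in F8, 5.43 in F10, 5.25 in F12, 5.27 in F15 and 5.69 in F33, and control F4 lay among them while the other 5 control arteries lay above. The log2 change was -1.0 (SE 0.25, adjusted p = 0.00321). In the RefSeq annotation Gpr34 overlaps Cask, and Cask fell by 0.47 (adjusted p = 8.59e-05). Gpr17, a receptor of oligodendrocyte precursors, fell by 0.45 (SE 0.13, adjusted p = 0.0118) and overlaps Lims2, which fell by 1.43 (adjusted p = 3e-06). Gpr18 fell by 0.24 (SE 0.07, adjusted p = 0.0133) and overlaps Ubac2, which fell by 0.19 (adjusted p = 0.04). Whether signal of an overlapping gene reaches these probe sets was not tested, and these overlapping genes were named after their values were seen.

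Of 10 measured members known mainly from leukocytes or microglia, Gpr84 rose, Cd97, Gpr18 and Gpr34 fell and 6 did not pass the test. The leukocyte markers moved differently among themselves. Of 4 measured neutrophil markers Fcnb, Mmp9 and S100a9 rose, and the list averaged 5.38 to 5.49 per artery in control, 5.63 to 6.33 in non-occluded and 5.85 to 6.51 in occluded MCAs. Of 10 macrophage and microglia markers C1qb, Cd14, Cd163 and Itgam rose and Cx3cr1 fell, with averages of 7.03 to 7.93 in control, 7.43 to 8.22 in non-occluded and 7.35 to 8.25 in occluded MCAs. The part of these cells in the receptor changes was not tested.

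Of 14 measured members known mainly from neurons or glia, Gpr17 and Gpr37 fell and 12 did not pass the test. Gpr37, a receptor of oligodendrocytes, ran from 6.54 to 7.22 in control and from 6.03 to 6.53 in occluded MCAs, with no overlap, and fell by 0.42 (SE 0.14, adjusted p = 0.0232). Without control F16, control F21 or occluded F15 its adjusted p was 0.0521, 0.0557 and 0.0791. The oligodendrocyte markers averaged 6.61 to 6.82 in control and 6.39 to 7.16 in occluded MCAs, with Mobp higher and Cnp lower of 6, and the astrocyte markers 6.62 to 8.41 and 7.73 to 9.09, with Gfap higher of 5. The neuron markers averaged 5.50 to 5.74 and 5.47 to 6.05, and of 5 the synaptic genes Snap25 (0.57, adjusted p = 0.0124) and Syt1 (0.36, adjusted p = 0.0494) rose. The part of neurons and glial cells in the receptor changes was not tested.

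The Mas-related receptors are named after Mas1, and several of them sense itch or pain in sensory neurons. Of the 5 measured on every array, Mrgprh and Mrgprf fell and Mrgprd, Mrgpre and Mrgprx2 did not pass the test. Mrgprh (named Mas1l in RefSeq; chromosome 1, 42146949 to 42147914) is an orphan. Control MCAs were at 9.86, 10.87 and 10.93 (lowest, median, highest), and 5 of the 6 lay between 10.75 and 10.93. Occluded MCAs were at 7.72 in F8, 7.76 in F10, 8.74 in F12, 7.08 in F15 and 7.77 in F33. Each occluded artery was more than 1 log2 unit below the lowest control artery. The fall was 7.37-fold (log2 change -2.88, SE 0.25, adjusted p = 8.86e-08), the largest change among the 67 receptors. Without control F26, the lowest of its group, the log2 change was -3.05 (adjusted p = 4.22e-08).

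Mrgprf, an orphan of the same family, had a narrow range of 9.45 to 9.77 in control MCAs and lay at 8.73 to 9.20 in occluded MCAs. It fell 1.52-fold without overlap (log2 change -0.60, SE 0.08, adjusted p = 1.78e-05). Mrgprd, a receptor of skin nociceptors, lies 11.6 kb from Mrgprf in the array annotation and differed by -0.01 (SE 0.09, adjusted p = 0.967). Mrgpre differed by -0.07 (SE 0.08, adjusted p = 0.537) and Mrgprx2, a receptor of mast cells in humans, by -0.22 (SE 0.12, adjusted p = 0.174). Mrgprg and Gpr162, an orphan of the brain, were listed only in the comparison of both arteries, so that control values were missing here. This does not show that their RNA was absent from control MCAs. Mrgprg was at 5.30 to 5.74 in non-occluded and 4.67 to 5.83 in occluded MCAs, and Gpr162 at 5.15 to 5.44 and 5.16 to 5.34. Neither was tested, since the fit took only probe sets with a value on every array.

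All 3 R-spondin receptors were measured. Lgr5, a marker of stem cells in the gut, was at 5.68, 5.99 and 6.59 (lowest, median, highest) in control MCAs. Occluded MCAs gave 4.89 in F8, 5.58 in F10, 5.53 in F12, 5.07 in F15 and 5.28 in F33, all below the control arteries, and the fall was 1.69-fold (log2 change -0.76, SE 0.15, adjusted p = 0.000534). Lgr4 was at 8.80 to 9.39 in control and 8.53 to 8.98 in occluded MCAs, with overlap, and fell by 0.30 (SE 0.10, adjusted p = 0.0221). Without control F16 or occluded F15 its adjusted p was 0.0536 and 0.0774. Lgr6 differed by -0.09 (SE 0.12, adjusted p = 0.599). Of the 4 measured genes among the R-spondins and the ligases that they hold back, Rspo3, which endothelial cells secrete, rose by 1.37 (SE 0.24, adjusted p = 0.000179) and 3 did not pass the test.

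Of the 3 measured class C orphans, Gprc5a rose. Gprc5a, a retinoic acid-induced gene known from lung epithelium, was at 7.06, 7.46 and 7.60 (lowest, median, highest) in control MCAs. Occluded MCAs were at 7.97 in F8, 8.23 in F10, 8.68 in F12, 8.44 in F15 and 8.50 in F33, above every control artery. The rise was 1.92-fold (log2 change 0.94, SE 0.16, adjusted p = 0.00012), and without control F26 the log2 change was 0.87 (adjusted p = 0.00033). Gprc5b and Gprc5c did not pass the test.

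Of 19 further orphans outside these families, Gpr20, Gpr21, Gpr37 and Gpr75 fell, none rose and 15 did not pass the test. Gpr20, an orphan known from the interstitial cells of Cajal in the gut, was at 8.75, 9.48 and 9.88 (lowest, median, highest) in control MCAs. Occluded MCAs lay close together at 8.37 in F8, 8.37 in F10, 8.49 in F12, 8.23 in F15 and 8.48 in F33, below every control artery. The fall was 2.09-fold (log2 change -1.06, SE 0.18, adjusted p = 0.000131). Gpr21, an orphan, was at 6.11, 6.96 and 7.27 in control MCAs, and occluded MCAs were at 5.86 in F8, 5.81 in F10, 6.57 in F12, 5.51 in F15 and 5.84 in F33. Occluded F12 lay above control F26, and all other occluded arteries lay below the control arteries. Its log2 change was -0.94 (SE 0.19, adjusted p = 0.000542), and -1.09 without control F26 (adjusted p = 2.69e-05). In the RefSeq annotation Gpr21 overlaps Rabgap1, which fell by 0.36 (adjusted p = 0.00028). Gpr75, for which the vasoconstrictor eicosanoid 20-HETE has been reported as a ligand, fell by 0.36 (SE 0.09, adjusted p = 0.00474).

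Of 9 measured members with a Gpr symbol that are not classical receptors, Gpr137b and Gpr155 fell and 7 did not pass the test. Gpr137b, a lysosomal membrane protein, ran from 8.07 to 8.54 in control and from 7.58 to 8.04 in occluded MCAs, with no overlap, and fell by 0.54 (SE 0.10, adjusted p = 0.000259). Gpr155, a cholesterol sensor of lysosomes, fell by 0.34 (SE 0.11, adjusted p = 0.0253). Its call was lost without control F16, occluded F8 or occluded F10 (adjusted p = 0.0587, 0.0589 and 0.0797). Gpr119, a receptor for fatty acid amides in the gut and pancreas, fell by 0.25 (SE 0.08, adjusted p = 0.0211), and its call was lost without occluded F10 or F15 (adjusted p = 0.0539 and 0.0703). The members of this set that work in the Golgi, Gpr107, Gpr108 and Gpr89, differed by -0.01, -0.10 and 0.13 (adjusted p = 0.963, 0.272 and 0.297).

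**Figure D3:**
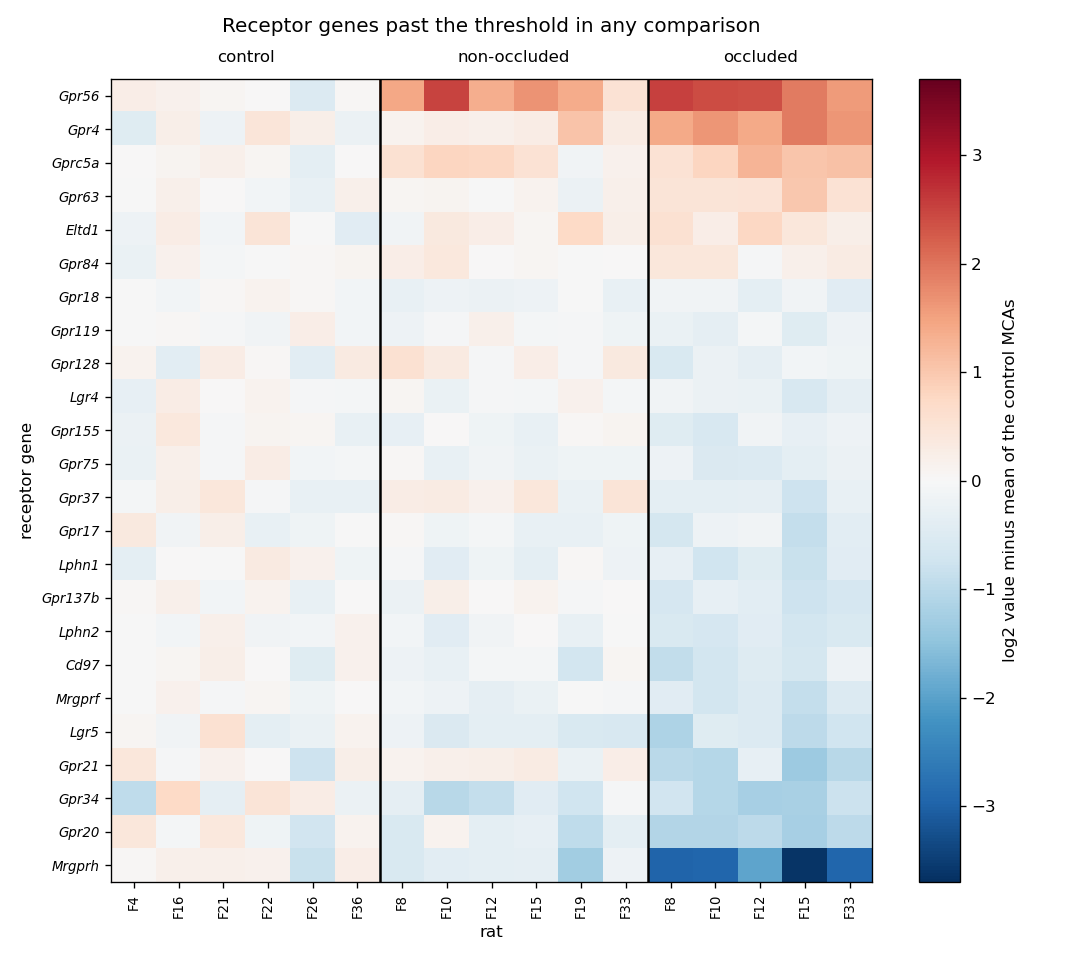
Log2 value of each array minus the mean of the control MCAs for 24 receptors past the threshold in any comparison (rows, ordered by the change between occluded and control MCAs) in each rat (columns). Gpr56 is raised in the non-occluded and the occluded MCAs, and Mrgprh is lowered most in the occluded MCAs, where the change against control was -2.88.

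In the non-occluded MCAs, compared with control MCAs, Gpr56 rose and no other receptor was past the threshold. This is 1 of 67 receptors higher (1.49%), where 1.75% of all probe sets were higher, and 0 lower, where 2.06% of all probe sets were lower. At an unadjusted p under 0.05 limma gave 6 higher and 7 lower receptors. The share of all probe sets at that threshold was not counted, so nothing is drawn from these 2 counts. SAM gave 1 higher and 0 lower receptors, and over all 13809 probe sets 107 higher and 62 lower. Gpr56 was at 7.05, 7.92 and 9.03 (lowest, median, highest) in non-occluded MCAs, and the lowest, F33, was above the highest control artery at 6.76. The rise was 2.77-fold (log2 change 1.47, SE 0.24, adjusted p = 0.00236). It kept its call when any of the 12 arteries was left out, with log2 changes of 1.26 to 1.66. Without control F26 the log2 change was 1.37 (adjusted p = 0.00638).

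Gpr56's ligand Tgm2 was also higher in the non-occluded MCAs, by 0.55 (SE 0.11, adjusted p = 0.00866). Gpr4 was higher by 0.38 (SE 0.16) and Gprc5a by 0.44 (SE 0.15), with adjusted p of 0.226 and 0.121. Without non-occluded F19 the difference of Gpr4 was 0.24 (adjusted p = 0.385), and Gprc5a was past the threshold (0.56, adjusted p = 0.0335), while without control F26 Gprc5a was at 0.37 (adjusted p = 0.197). Mrgprh differed by -0.52 (SE 0.24, adjusted p = 0.254), by -0.69 without control F26 (adjusted p = 0.103) and by -0.37 without non-occluded F19 (adjusted p = 0.419). Gpr34 differed by -0.57 (SE 0.24, adjusted p = 0.196) and was past the threshold without control F4 (-0.76, adjusted p = 0.0457). Gprc5c, at -0.19 (adjusted p = 0.208), was past it without non-occluded F10 (-0.26, adjusted p = 0.0324). Gpr18 differed by -0.19 (adjusted p = 0.136), and by -0.23 without non-occluded F19 (adjusted p = 0.0796). For Gpr21 the difference was 0.14 (adjusted p = 0.719), and 0.22 without F19 (adjusted p = 0.573). The comparisons of occluded and of non-occluded MCAs with control share the same 6 control arteries.

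Between the arteries of the operated rats, 4 receptors were higher and 11 lower in the occluded than in the non-occluded MCAs. This is 5.97% and 16.4% of the 67, where 16.8% of all probe sets were higher and 15.5% lower. Gpr4, Gpr56, Gpr63 and Gprc5a were higher. Mrgprh, Gpr21, Gpr20, Gpr37, Gpr137b, Gpr128, Mrgprf, Lphn2, Lphn1 and Lgr4 were among those that were lower. With a random replicate block for the rat, the lower receptors were 17, with Cd97, Gpr17, Gpr75, Gpr119, Lgr6 and Mrgprd added, and Cd97 missed the threshold without the block by little (-0.38, SE 0.14, adjusted p = 0.0501). With rat as a fixed replicate block Lphn3 was added among the higher (0.48, adjusted p = 0.0171, against 0.31 and 0.512 without the block), and it was higher in the occluded artery of all 5 rats, by 0.06 in F12 to 0.90 in F8. That block also added Gpr34 among the lower (-0.46, adjusted p = 0.0125, against -0.43 and 0.208), beside Cd97, Gpr75 and Lgr6, and Gpr34 was lower in all 5 rats, from -0.02 in F10 to -0.78 in F15. SAM called 5 of the 15, Gpr4, Gpr63, Mrgprh, Gpr21 and Gpr137b. Over all probe sets SAM called 1036 higher and 522 lower, where limma called 2319 and 2134.

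Gpr4 was at 7.20, 7.34 and 8.13 (lowest, median, highest) in non-occluded MCAs, below every occluded artery, and F19 held the highest value. It was higher in the occluded artery of all 5 rats, by 1.22 to 1.64, and the fitted difference was 1.22 (SE 0.17, adjusted p = 2.87e-05). Without F19 the difference was 1.36 (adjusted p = 2.26e-06). Gpr63 was at 5.56 to 5.99 in non-occluded MCAs, again below every occluded artery, and was higher in all 5 rats by 0.34 to 0.88 (difference 0.56, SE 0.11, adjusted p = 0.000697). Gprc5a was higher in 4 of the 5 rats by 0.93 in F33, 0.50 in F12, 0.47 in F15 and 0.02 in F10, with 0.00 in F8, and its difference was 0.50 (SE 0.16, adjusted p = 0.0226). It was past the threshold no longer without non-occluded F33 or occluded F12, F15 or F33, with an adjusted p up to 0.0618.

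Gpr56 differed between rats. It was higher in the occluded artery by 1.11 in F8, 1.06 in F12 and 1.05 in F33, by 0.25 in F15, while the difference was -0.10 in F10, the rat with the highest non-occluded value. The difference was 0.69 (SE 0.25, adjusted p = 0.045) with overlapping groups. The call was lost in 9 of the 11 fits with 1 artery left out (non-occluded F8, F12, F15, F19 and F33, occluded F8, F10, F12 and F15, adjusted p up to 0.106), after median centring, after cyclic loess and in SAM.

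Mrgprh was at 9.42, 10.31 and 10.51 (lowest, median, highest) in non-occluded MCAs, and F19, the lowest, was still above the occluded artery F12 at 8.74. The difference within a rat was -1.58 in F12, -2.41 in F8, -2.53 in F10, -2.74 in F33 and -3.27 in F15. The difference was -2.36 (SE 0.25, adjusted p = 1.63e-06), or 5.12-fold, and -2.51 without F19 (adjusted p = 1.01e-06). Gpr21 was at 6.63, 7.06 and 7.16 in non-occluded MCAs, above every occluded artery, and was lower in the occluded MCAs (difference -1.09, SE 0.19, adjusted p = 0.000223; -1.16 without F19, adjusted p = 0.000182). Gpr20 differed by -0.67 (SE 0.18, adjusted p = 0.0089), with no overlap since the lowest non-occluded value was 8.52. Gpr18 differed by -0.04 (adjusted p = 0.692), and by -0.01 without F19 (adjusted p = 0.96). Gpr37 was lower in the occluded artery of all 5 rats, with -0.47 in F12 and -1.19 in F15 at the ends (difference -0.65, SE 0.14, adjusted p = 0.00159). In non-occluded MCAs Gpr37 averaged 7.03 and thus 0.23 above control (SE 0.13, adjusted p = 0.371), while the occluded MCAs differed from control by -0.42.

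Gpr128 (Adgrg7), an adhesion receptor of the intestine, was past the threshold between the arteries and had an adjusted p of 0.14 against control. Gpr128 was at 5.98 to 6.58 in non-occluded and 5.46 to 5.93 in occluded MCAs, with no overlap (difference -0.51, SE 0.14, adjusted p = 0.0106). Lphn1 (-0.35, adjusted p = 0.0352) and Lgr4 (-0.27, adjusted p = 0.0482) lost their call in 6 and 9 of the 11 fits with 1 artery left out, with adjusted p up to 0.111 and 0.153, both without occluded F15.

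**Figure D4:**
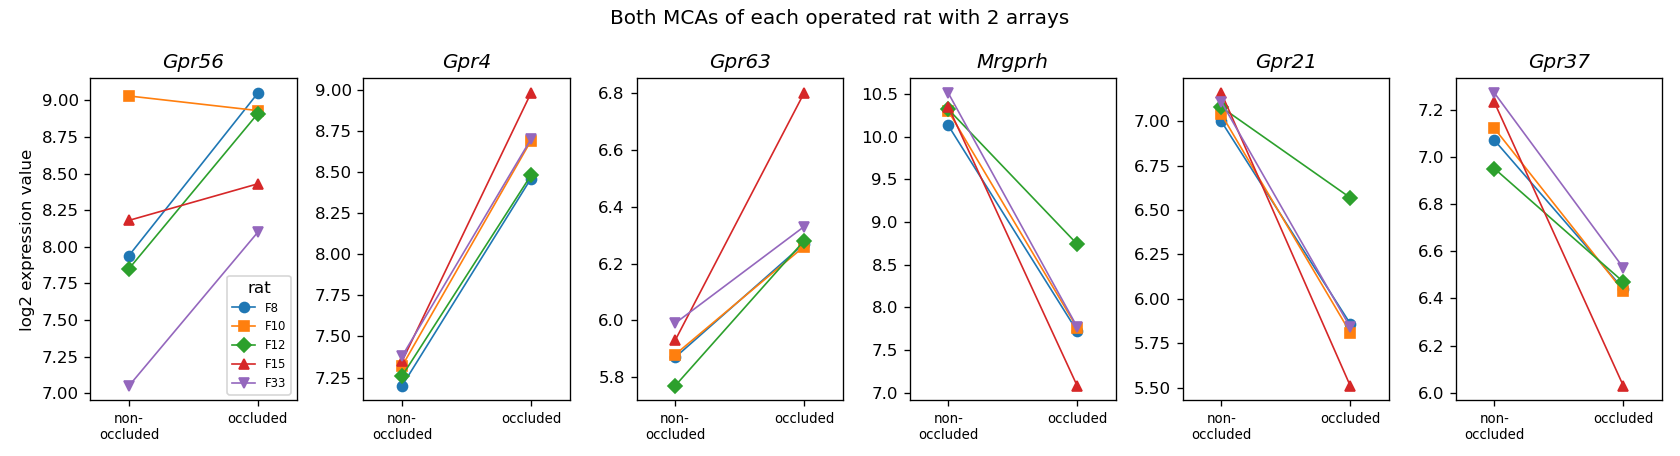
Log2 expression values in the non-occluded (left) and the occluded MCA (right) of the 5 rats with both arteries, 1 line per rat, for 6 receptors. Gpr4 and Gpr63 were higher and Mrgprh, Gpr21 and Gpr37 lower in the occluded artery of all 5 rats, while Gpr56 was higher in 4 of them. Vertical axes differ between panels.

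Past the threshold in any comparison were 25 receptors, and the 42 others passed it in none. The share of all probe sets past it in any comparison was not counted. In occluded against control MCAs alone 19.0% of all probe sets were higher and 22.3% lower. The 42 include Gpr146, a receptor linked to plasma cholesterol, at 7.68 to 8.54 in control and 7.71 to 8.47 in occluded MCAs (log2 difference -0.04, SE 0.16, adjusted p = 0.881), and Gpr183, the oxysterol receptor of lymphocytes (0.19, adjusted p = 0.244). The constitutively active receptors Gpr3 and Gpr12, which raise cyclic AMP, differed by -0.03 and 0.12 (adjusted p = 0.792 and 0.311), and the lactate receptor Gpr81 by -0.10 (adjusted p = 0.769).

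The proteins through which these receptors signal were counted from lists. Of 19 measured G protein subunits, Gna13 and Gng5 rose and 8 fell in the occluded against control MCAs, and the median change was -0.15. In this comparison 19.0% of all probe sets were higher and 22.3% lower. Gnao1, the alpha subunit of Go, fell by 0.81 (SE 0.09, adjusted p = 9.55e-07), the beta subunit gene Gnb5 by 0.79 (SE 0.09, adjusted p = 1.88e-06) and the gamma subunit gene Gng11 by 0.68 (SE 0.12, adjusted p = 0.000253). Of 8 measured receptor kinases and arrestins, the kinase Grk5 rose and 4 fell. Grk5 rose by 0.93 (SE 0.11, adjusted p = 3.62e-06), and the arrestins Arrb1 and Arrb2 fell by 0.49 (adjusted p = 0.0027) and 0.46 (adjusted p = 0.00306). In the non-occluded MCAs Gnao1 and Gnb5 fell by 0.34 (adjusted p = 0.0294) and 0.42 (adjusted p = 0.0111), Adrbk2 fell by 0.40 (adjusted p = 0.0312) and no gene of these 2 lists rose. There 1.75% of all probe sets were higher and 2.06% lower.

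The 3 receptors with the largest changes were compared in the 250 bases upstream of their RefSeq transcription start (GRCr8, gene strand). A window was found for 48 of the 67 receptors. The windows were searched on both strands for the cyclic AMP response element TGACGTCA and its core TGACG, which the full element contains, AP-1 TGANTCA and STAT TTCNNNGAA. Also searched were NF-kappaB GGANNTTCC, the hypoxia response element ACGTG and the glucocorticoid receptor half-site AGAACA. A full site of the glucocorticoid receptor was not searched. The upstream bases of Gpr56 (chr19:10047139-10047388, minus strand) held none of them. Capitals mark the motif AGAACA or its reverse complement, which occurs in Gpr4 (chr1:88002829-88003078, plus strand) at positions -103 and -97 from the start, side by side in opposite directions, and in Mrgprh (chr1:50421219-50421468, minus strand) at position -72.
Gpr56: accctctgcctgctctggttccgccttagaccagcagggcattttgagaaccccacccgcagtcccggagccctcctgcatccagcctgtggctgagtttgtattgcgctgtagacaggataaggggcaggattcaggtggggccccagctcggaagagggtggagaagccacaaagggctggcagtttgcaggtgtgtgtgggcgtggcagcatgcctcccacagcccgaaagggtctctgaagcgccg
Gpr4: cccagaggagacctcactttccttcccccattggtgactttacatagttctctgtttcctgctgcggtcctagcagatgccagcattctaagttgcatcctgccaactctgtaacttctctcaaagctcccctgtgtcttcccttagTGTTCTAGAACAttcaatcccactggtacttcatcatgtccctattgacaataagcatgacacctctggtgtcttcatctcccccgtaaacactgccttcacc
Mrgprh: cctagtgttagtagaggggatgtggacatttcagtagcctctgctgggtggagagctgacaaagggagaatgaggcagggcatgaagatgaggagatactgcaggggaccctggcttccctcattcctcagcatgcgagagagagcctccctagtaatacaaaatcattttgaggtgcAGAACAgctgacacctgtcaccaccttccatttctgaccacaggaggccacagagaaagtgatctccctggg
AGAACA occurred in 17.5% of all 33469 windows of this length and in 6 of the 48 receptor windows. It was found in 1 of 5 windows of receptors that rose (Gpr4) and in 2 of 11 of those that fell (Mrgprh and Gpr119). TGACG occurred in 18.2% of all windows and 9 of the 48, ACGTG in 16.6% and 6, TTCNNNGAA in 7.67% and 4, TGANTCA in 6.34% and 1, GGANNTTCC in 3.36% and 0, and TGACGTCA in 1.59% and 0. Among the windows of receptors that rose, no motif other than AGAACA occurred. A match is a description of these letters and says nothing of binding.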

How the data were processed

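RNA of 17 MCAs was hybridised to Affymetrix rat gene arrays, 1 per artery. The authors used Affymetrix Expression Console 1.1.2 for robust multi-array averaging and quantile normalization, and deposited the result as log2 values. Per the study's methods, probe sets below the median of the negative controls in most samples were left out. The 3 deposited tables, 1 per comparison, hold 13845, 13810 and 13938 probe sets. The tables did not differ in any value they share. Together they gave 13809 probe sets without a missing value. Columns with the authors' fold changes, p-values and scores were not used.

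The 3 groups entered a single limma fit (version 3.58.1, R 4.3.3) of all 17 arrays, and p was adjusted after Benjamini and Hochberg over the 13809 probe sets, with a threshold of 0.05. The study's test, SAM, was rerun with 100 permutations as an alternative at a median of 0 false calls. The study's exact SAM settings could not be rebuilt. Other alternatives were rat as a block, median centring, cyclic loess, a mean-variance trend, a minimum mean of 6, a fit per table, a minimum of 1.5-fold and leaving out each array. The scripts were tested on simulated data. Both arteries of 5 rats carry the same rat number in the labels. After removal of group means these pairs correlated at 0.156 to 0.486, and the 25 other pairs at -0.294 to 0.327, so the numbers pair the samples. Control arteries and each group of arteries from operated rats are separate animals.

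Members and gene lists were chosen with earlier results of these data known. Genes were named mainly by a rule, which took per comparison the 10 largest changes in each direction past the threshold (array values for 5). It also took all R-spondin, Mas-related and proton-sensing receptors, members lacking values in a group, and of other lists the genes with the smallest p. Further genes, among them Gpr97, Gpr75, Gpr146 and Col3a1, were named outside this rule. The values of 2 members are counted but not reported here. Of the 67 members, 65 were matched to RefSeq (GRCr8), 14 under another symbol, through which promoter windows and overlapping genes were taken. Python 3.11.15 with pandas 2.3.3 and matplotlib 3.10.9 was used. Arrays give no counts, so precision is the spread between arrays.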

Additional observations from a re-analysis of the deposited data

Results flagged for a closer look

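In 72 groups of arrays, the 3 groups for each of 24 receptors past a threshold, the highest or lowest array was set against its group with Dixon's ratio, which chance passes in about 1 of 20 groups. It passed in 9. Control artery F26 was the lowest of its group for Mrgprh (9.86, the next at 10.75), Gpr56 (6.02, the next at 6.53) and Gprc5a (7.06, the next at 7.43). Non-occluded artery F19, whose rat gave no occluded array, was the highest of its group for Gpr4 (8.13, the next at 7.38) and Gpr18 (5.64, the next at 5.46). It was the lowest for Mrgprh (9.42, the next at 10.13) and Gpr21 (6.63, the next at 7.00). Occluded artery F15 was the highest for Gpr63 (6.80, the next at 6.33) and the lowest for Gpr37 (6.03, the next at 6.43).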

How the results depend on the processing

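No fold change of a receptor past the threshold changed sign under any alternative run. SAM, the mean-variance trend, the minimum mean of 6, the fit per table and the minimum of 1.5-fold could not change one. They take the same difference of group means, so only the blocks, median centring, cyclic loess and leaving out an array tested the sign. The counts of higher and lower receptors in occluded against control MCAs were 6 and 17. SAM gave 5 lower, and a minimum of 1.5-fold gave 6 lower. Between occluded and non-occluded MCAs the counts were 4 and 11, and SAM gave 2 and 3, the minimum of 1.5-fold 2 and 4, and rat as a random replicate block 4 and 17 (as a fixed replicate block 5 and 15). The block changed no call among the 23 receptors of occluded against control MCAs except that Gpr157 was added (-0.28, adjusted p = 0.0456, against 0.0501 without it). Leaving out 1 artery gave 14 to 18 lower receptors in occluded against control MCAs and 4 to 6 higher. It gave 2 to 4 higher between the arteries, the lowest without non-occluded F33, occluded F12 or occluded F15. In non-occluded against control MCAs it gave 1 to 2 higher (2 without F19) and 0 to 1 lower (1 without control F4 or non-occluded F10). Median centring, cyclic loess and the fit per table each ended the call of Gpr56 between the arteries. SAM adds a constant to the spread and was set to a median of 0 false calls. It left 9 of the 23 calls in occluded against control MCAs and 5 of the 15 between the arteries. In both comparisons it also called fewer of all probe sets than limma. The mean over several probe sets of a gene gave no other value, since every receptor had 1. Of the 67 receptors 25 averaged below 6, where background takes a larger part of the signal.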
